A study of Mus musculus with 6 samples.

Results

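The dual-specificity and tyrosine phosphatase genes of mouse gastrocnemius/plantaris (GP) muscle were taken by symbol from the count tables: every symbol made of Dusp and a digit, Ptpn and a digit, or Ptpr and a letter, together with Dupd1 and without Ptprc. The rule found 64 of 24421 symbols and used no measured value. Of these, 61 had a count in any library and 56 passed the expression filter, which keeps genes with enough counts in at least 3 libraries. Ptpn20, Dusp21 and the antisense gene Ptprtos were listed at 0 counts in all 6 libraries, and Ptprn2, Ptprt, Ptprh, Ptpn5 and Dusp9 had too few counts to be tested (at most 12 in any library). Ptprcap, whose product associates with CD45 and is not a phosphatase, was carried as unclassed. All of its 1611 exon bases in GENCODE M21 lie in exons of other genes, and 24 of the 64 genes share some exon bases with another gene.

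Bulk RNA-Seq was performed on GP muscle of 3 mice labelled Ctrl and 3 labelled cKO, each library from a separate male mouse. By the study's methods the floxed line began in B6C3F1 zygotes. Its founders were mated to another strain, and the line was then crossed with mice carrying the Cre transgene. The labels give Net39 fl/fl without Cre for the mice labelled Ctrl and HSACreERT2;Net39 fl/fl for those labelled cKO. By the labels and the study's methods all 6 mice carry the floxed allele, received tamoxifen, and were 5 months old at harvest, 3 months after tamoxifen. The human skeletal actin promoter drives the Cre in muscle fibers, so other cells of the muscle keep the gene, and the loxP sites flank the first exon, whereas counts were made over the whole gene.

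Net39, listed as Ppapdc3, went against the labels. Its level was 7.92, 7.75 and 5.93 CPM (counts scaled to the size of the library) in libraries Ctrl 1, 2 and 3 and 151, 113 and 138 CPM in libraries cKO 1, 2 and 3, a log2 fold change of 4.22 (SE 0.17, adjusted p = 0.000161, edgeR's quasi-likelihood test). Whether labels or files were exchanged cannot be told from these counts, and an exchange of groups would turn every direction given. For that reason every direction below is given for the libraries as labelled, values set against each other give Ctrl-labelled libraries 1, 2 and 3 first, and log2 fold changes are those of cKO-labelled over Ctrl-labelled libraries. Total counts were 33860001 to 48839910 per library. Muscle fiber markers summed to 66288 to 73174 CPM in Ctrl-labelled libraries and 86549 to 119714 CPM in cKO-labelled libraries, and 0 of the 7 were absent. Of the 7, 5 had a log2 fold change above 0 and 4 an adjusted p under 0.05. Mb (-0.68) and Des (-0.05) were below 0, and Actn3 is also a type IIb marker. Slow-fiber markers summed to 9460 to 15999 CPM and 610 to 4198 CPM, type IIb fast-fiber markers to 44737 to 79887 CPM and 126681 to 164873 CPM, and immune markers to 145 to 170 CPM and 66.0 to 96.3 CPM, in the same order of groups. The study reports reduced Net39 in cKO muscle and, by single-nucleus RNA-Seq, more type I (slow-fiber) myonuclei there. As labelled here, Net39 and the slow-fiber markers lay in the opposite direction, and the cause was not tested.

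Protein tyrosine phosphatases remove phosphate from tyrosine, and the dual-specificity branch also removes it from serine and threonine. Among the dual-specificity enzymes, the MAP kinase phosphatases carry a kinase-binding domain and switch off ERK, JNK and p38 by dephosphorylating the threonine and the tyrosine of the activation loop. The atypical enzymes lack that domain and act on varied substrates, among them lipids, RNA and other proteins. Receptor-type tyrosine phosphatases span the membrane and sit at cell contacts, whereas the non-receptor type works in the cytosol and nucleus. In muscle, MAP kinases respond to contraction, stretch and injury, and tyrosine phosphatases set the duration of insulin and growth factor signals.

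Promoter sequences of 5 genes are shown. Dupd1 had the smallest p of the phosphatase genes and carries the letters of a muscle motif, Dusp27 and Dusp16 are the other genes with that motif, Dusp1 had the highest length-scaled level over the 6 libraries and carries a cAMP response element, and Dusp18 had the lowest log2 fold change. Each is the 250 bases before the RefSeq start on GRCm38.p6, written in the direction of transcription, and capitals mark matches to MEF2 (the motif of the myocyte enhancer factor 2 family), to the E-box CAGCTG or to the cAMP response element TGACGTCA.
Dupd1 (chr14:21714577-21714826, minus strand): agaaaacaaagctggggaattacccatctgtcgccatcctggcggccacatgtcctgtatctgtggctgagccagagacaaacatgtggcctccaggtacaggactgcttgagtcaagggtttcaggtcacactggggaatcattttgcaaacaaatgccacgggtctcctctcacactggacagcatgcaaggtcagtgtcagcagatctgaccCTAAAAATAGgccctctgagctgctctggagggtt
Dusp27 (chr1:166127899-166128148, minus strand): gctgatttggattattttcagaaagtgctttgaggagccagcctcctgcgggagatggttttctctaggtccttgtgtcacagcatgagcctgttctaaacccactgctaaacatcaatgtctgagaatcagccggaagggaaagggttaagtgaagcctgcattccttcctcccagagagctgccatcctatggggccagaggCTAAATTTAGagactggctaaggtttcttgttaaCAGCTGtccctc
Dusp16 (chr6:134792629-134792878, minus strand): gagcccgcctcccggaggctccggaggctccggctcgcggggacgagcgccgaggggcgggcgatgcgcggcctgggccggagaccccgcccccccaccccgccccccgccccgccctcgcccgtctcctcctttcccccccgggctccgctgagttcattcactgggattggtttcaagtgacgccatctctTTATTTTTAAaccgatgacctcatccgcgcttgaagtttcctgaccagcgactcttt
Dusp1 (chr17:26508473-26508722, minus strand): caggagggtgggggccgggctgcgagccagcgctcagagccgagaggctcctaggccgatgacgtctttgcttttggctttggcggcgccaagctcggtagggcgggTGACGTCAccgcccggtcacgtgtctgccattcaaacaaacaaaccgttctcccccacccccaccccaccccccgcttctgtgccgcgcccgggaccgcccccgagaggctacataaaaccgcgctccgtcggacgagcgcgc
Dusp18 (chr11:3894990-3895239, plus strand): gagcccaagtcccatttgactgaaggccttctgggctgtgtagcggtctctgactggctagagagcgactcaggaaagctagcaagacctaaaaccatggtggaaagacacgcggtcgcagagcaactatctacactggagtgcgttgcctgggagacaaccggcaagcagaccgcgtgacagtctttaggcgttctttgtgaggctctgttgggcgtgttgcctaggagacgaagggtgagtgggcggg

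Matches were searched on both strands in the promoters of the 51 phosphatase genes with an entry, 67 starts in all. The MEF2 motif was found in 3 of the 67 (4.48%) against 2.92% of 32851 mouse promoters, at -35 in Dupd1, -46 in Dusp27 and -57 in Dusp16 counted from the start. TGACGTCA was found in 4 of the 67 (5.97%, Dusp1, Dusp8, Ptpn11 and Ptpru) against 1.55% of all promoters. CAGCTG was found in 7.46% against 13%, and the TATA-box letters TATAAA in 1.49% against 12.4%. The Dusp18 window held none of the 4 motifs. The 13 genes with no promoter entry were Dusp4, Dusp9, Dusp15, Dusp19, Dusp21, Dusp26, Ptpn2, Ptpn12, Ptprb, Ptprcap, Ptprd, Ptprq and Ptprv. These matches describe letters and no binding was measured.

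Levels were compared between genes as CPM per kb of exon. Dusp1 (60.7 CPM per kb), Dusp13 (52.2), Dusp3 (37.8) and Dupd1 (34.8) led in the mean of 6 libraries, followed by Dusp27 (28.1) and Ptpn11 (27.0). The order differed between groups: Dusp1 (67.0), Dupd1 (50.7) and Dusp13 (46.3) led in Ctrl-labelled libraries, and Dusp13 (58.1), Dusp1 (54.5) and Dusp3 (44.2) in cKO-labelled libraries, where Dupd1 was at 19.0 CPM per kb. Dusp13, Dupd1 and Dusp27 are known as muscle genes: Dusp13 encodes a muscle and a testis enzyme, Dupd1 (also Dusp29) an AMPK- and denervation-associated muscle phosphatase, and Dusp27 (also Styxl2) a catalytically inactive protein needed for sarcomere assembly. The 10 genes with the highest levels held 67.9% of the summed length-scaled level, the median of the 56 tested genes was 2.91 CPM per kb, and 14 of the 64 genes were below 1 CPM on average without scaling for length.

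**Figure D1:**
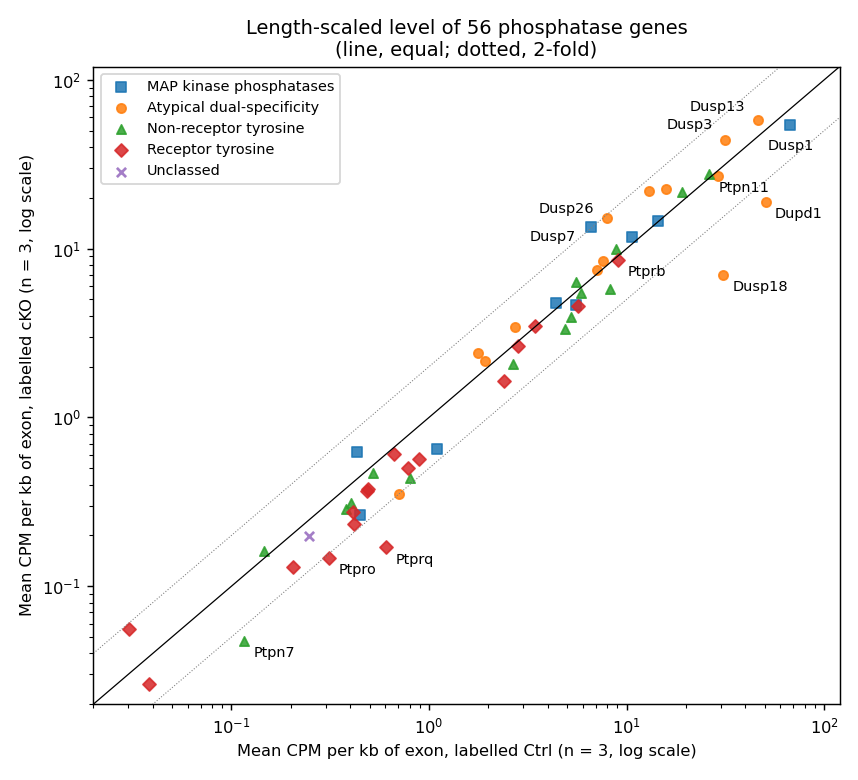
Mean level of each of the 56 tested genes in Ctrl-labelled libraries (x axis) and in cKO-labelled libraries (y axis), both in CPM per kb of exon on log scales, n = 3 each, with symbols for the enzyme classes. Most genes lie between the dotted 2-fold lines, and Dupd1 (50.7 against 19.0) and Dusp18 (30.9 against 7.02) are the abundant genes that lie below them.

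Both thresholds (adjusted p under 0.05, more than 2-fold) were passed by 5 of the 56 tested genes (8.93%) with the higher level in Ctrl-labelled libraries, against 3.92% of all 14180 tested. These were Dusp18, Ptprq, Dupd1, Ptpn7 and Ptpro. In the other direction 0 of 56 passed both thresholds, against 2.13% of all genes, and 0 did so at an unadjusted p under 0.05 or in DESeq2. At an adjusted p under 0.05 alone, 10 (17.9%) were higher in Ctrl-labelled libraries, against 11.8% of all genes, and 5 (8.93%) in cKO-labelled libraries, against 12.6%. With libraries scaled by total counts in place of TMM, which shifts the all-gene median from -0.02 to -0.27 on the log2 scale, that split was 19 to 2, where 28.7% and 4.75% of all genes passed. The median log2 fold change of the 56 genes was -0.21. Non-overlapping groups were seen for 22 of the 56 genes (39.3%), against 43.9% of all genes tested. An exact two-sided permutation test of 3 libraries against 3 cannot give a p below 0.1, so the adjusted p-values given are those of edgeR's quasi-likelihood test over all genes.

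**Figure D2:**
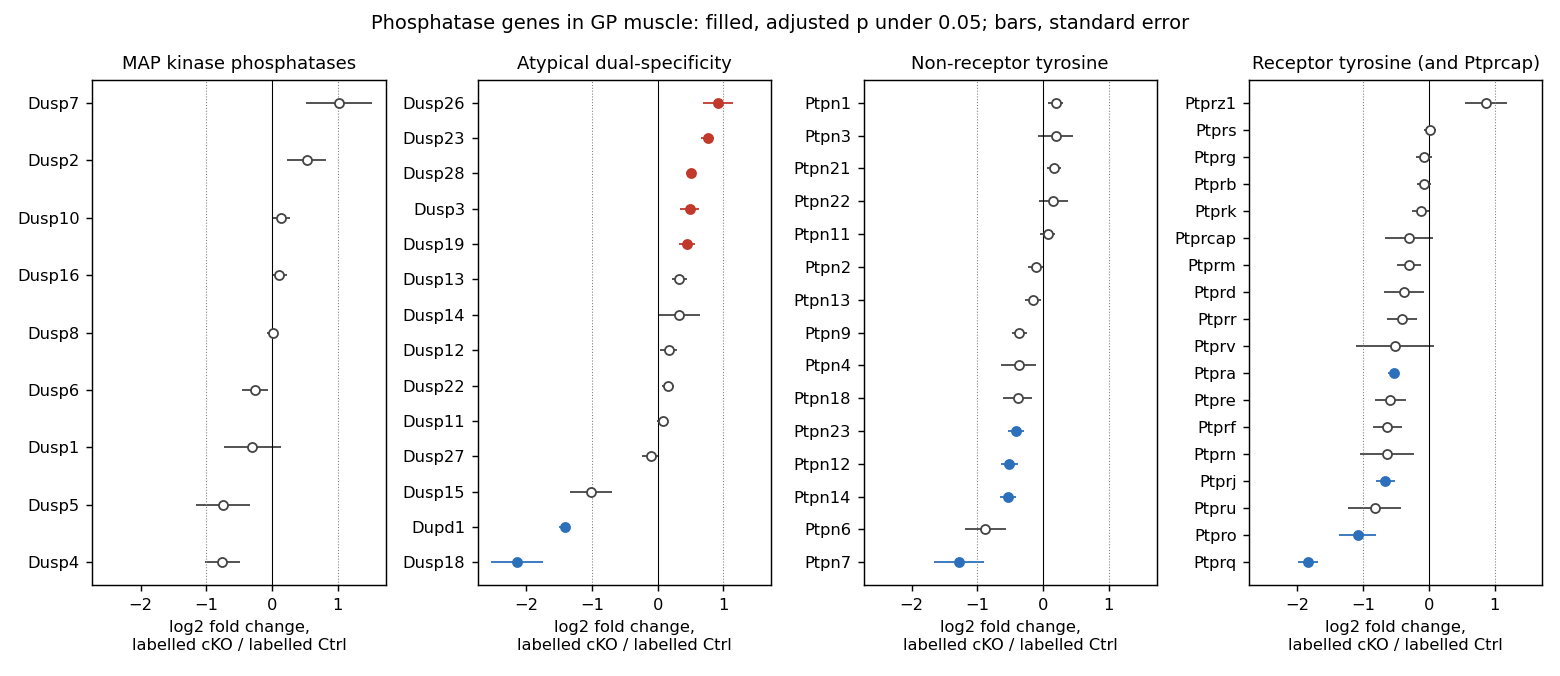
Log2 fold change (labelled cKO over labelled Ctrl, x axis) of the 56 tested genes in rows by enzyme class, with standard errors as bars; filled points have an adjusted p under 0.05 (blue, higher in labelled Ctrl; red, higher in labelled cKO) and dotted lines mark a 2-fold difference. All 5 filled red points are atypical dual-specificity genes, and the receptor class holds 4 filled blue points.

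No MAP kinase phosphatase passed the test with TMM scaling and all 6 libraries. Of 9 tested, 0 had an adjusted p under 0.05 in edgeR with all libraries or in DESeq2, where 24.4% and 24.9% of all genes did in either direction, and 1 (Dusp4, named for this count after its values were seen) had an unadjusted p under 0.05 in each (38.8% of all genes in edgeR). Dusp4, a nuclear inducible enzyme, had a log2 fold change of -0.76 (SE 0.27, adjusted p = 0.0797). It passed with total counts (-0.99, adjusted p = 0.0388) and without cKO 2 (-1.06, adjusted p = 0.0232), and its adjusted p was 0.0518 to 0.206 under the other alternatives. The log2 fold changes of the 9 ran from -0.76 to 1.02 with a median of 0.01, and 5 of 9 were above 0, or 2 of 9 with total counts. The all-gene median had 5 of 9 above it with either scaling. Dusp1, an immediate early gene that acts on p38 and JNK in the nucleus, was at 362, 166 and 137 CPM in Ctrl-labelled libraries and 159, 112 and 270.0 CPM in cKO-labelled libraries. The groups overlapped, and the range within each group was wider than the difference between their means (222 ± 122 and 180.3 ± 81.3 CPM, SD, n = 3). Dusp7, a cytoplasmic ERK-selective enzyme, was at 20.3, 33.2 and 13.4 CPM in Ctrl-labelled libraries and 67.4, 17.6 and 51.2 CPM in cKO-labelled libraries. Library cKO 2 lay among the Ctrl-labelled ones, and the log2 fold change of 1.02 (SE 0.50) did not pass (adjusted p = 0.176, or 0.0336 with a log2 fold change of 1.39 without cKO 2). Dusp8, a JNK- and p38-selective enzyme with high expression in muscle, brain and heart, had the log2 fold change nearest to 0 of the 9, at 75.8, 68.0 and 67.1 CPM against 71.5, 74.5 and 66.5 CPM (0.01, SE 0.08, adjusted p = 0.939).

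The atypical dual-specificity genes differed in both directions. Of 14 tested, Dusp18 and Dupd1 were more than 2-fold higher in Ctrl-labelled libraries, Dusp26, Dusp23, Dusp28, Dusp3 and Dusp19 were higher in cKO-labelled libraries by less than 2-fold, and 7 did not pass (log2 fold changes -1.01 to 0.33). That is 14.3% higher in Ctrl-labelled libraries, beside 11.8% of all genes, and 35.7% in cKO-labelled libraries, beside 12.6%. With total counts 4 were higher in Ctrl-labelled libraries, beside 28.7% of all genes, and 2 in cKO-labelled libraries, beside 4.75%. The median log2 fold change of the 14 was 0.25, and 10 of 14 were above 0, or 7 of 14 with total counts. Against the all-gene median the class stood at 10 above and 4 below with either scaling.

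Dusp18, a phosphatase found at mitochondria, was at 152, 129.6 and 147 CPM in Ctrl-labelled libraries and 29.3, 52.7 and 15.6 CPM in cKO-labelled libraries. The lowest Ctrl-labelled library was above the highest cKO-labelled one, and the log2 fold change was -2.14 (SE 0.39, adjusted p = 0.0106). The cKO-labelled libraries spread more than the Ctrl-labelled ones, with means of 32.5 ± 18.8 and 143 ± 11.9 CPM (SD, n = 3). Slow-fiber markers were in the same order within cKO-labelled libraries, at 4198 summed CPM in cKO 2, 2264 in cKO 1 and 610 in cKO 3, a 6.89-fold range. Within Ctrl-labelled libraries the order differed, with slow-fiber sums of 15999, 9797 and 9460 CPM in Ctrl 1, 2 and 3, where Dusp18 was lowest in Ctrl 2. All 11 slow-fiber markers were tested, 11 had a log2 fold change below 0 and 6 had an adjusted p under 0.05. Their part in the Dusp18 result was not tested, and in whole muscle fewer cells of a type and less RNA per cell cannot be told apart. The gene lies on chromosome 11, 3895240 to 3901296, plus strand (GRCm38, GENCODE M21), and shares no exon base with another gene.

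Dupd1, the muscle phosphatase with the MEF2 letters shown above, was at 58.4, 65.4 and 64.9 CPM in Ctrl-labelled libraries and 23.4, 24.9 and 22.5 CPM in cKO-labelled libraries. The groups were tight and far apart, with a log2 fold change of -1.42 (SE 0.08, adjusted p = 0.000550), and cKO-labelled libraries differed by far less than for Dusp18 or the slow-fiber markers. Dupd1 lies on chromosome 14, 21676537 to 21714576, minus strand. Its neighbour on the same strand, Dusp13, lies 18817 bases away and was at 113, 131 and 138 CPM in Ctrl-labelled libraries and 166, 140.1 and 172 CPM in cKO-labelled libraries. Dusp13 was thus slightly higher in cKO-labelled libraries without overlap, but did not pass in edgeR (log2 fold change 0.33, SE 0.11, adjusted p = 0.0787, or 0.0493 in DESeq2). The ratio of Dupd1 to Dusp13 CPM, which is free of library scaling, was 0.519, 0.501 and 0.469 in Ctrl-labelled libraries and 0.141, 0.178 and 0.131 in cKO-labelled libraries. Its mean log2 difference was -1.74 (exact two-sided permutation p = 0.1, the smallest possible). The other genes with MEF2 letters did not pass: Dusp27 was at a log2 fold change of -0.10 (adjusted p = 0.603) and Dusp16 at 0.11 (adjusted p = 0.499), both named for their promoters.

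**Figure D3:**
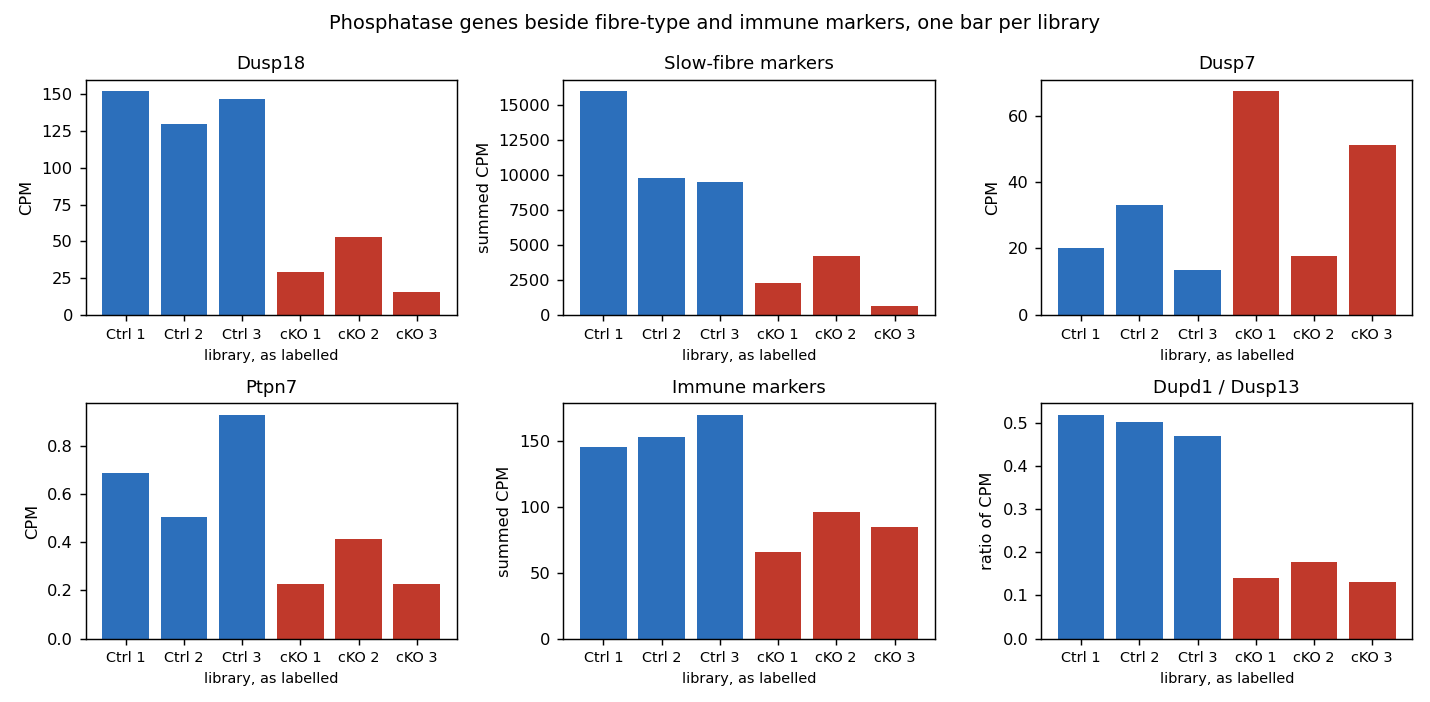
Bars from 0 for each library as labelled, giving CPM of Dusp18, Dusp7 and Ptpn7, summed CPM of the slow-fiber and immune markers, and the ratio of Dupd1 to Dusp13 CPM. Dusp18 and the slow-fiber markers share the order cKO 2, cKO 1, cKO 3 from high to low but not the order of Ctrl 2 and Ctrl 3, while the Dupd1 to Dusp13 ratio stays between 0.131 and 0.178 in cKO-labelled libraries.

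The 5 atypical genes that were higher in cKO-labelled libraries differed by 1.37- to 1.90-fold. Dusp23 (VHZ), a small single-domain phosphatase, was at 19.8, 16.0 and 19.4 CPM against 30.5, 33.4 and 29.6 CPM, a log2 fold change of 0.76 (SE 0.11, adjusted p = 0.00482). Dusp28, another small atypical enzyme, was at 20.1, 21.3 and 21.1 CPM against 31.2, 28.0 and 29.7 CPM (0.51, SE 0.08, adjusted p = 0.00603). Both genes had groups clearly apart and narrow. Dusp26, which is known to act on p38, was at 22.2, 18.8 and 13.9 CPM against 24.8, 38.8 and 40.8 CPM (0.93, SE 0.23, adjusted p = 0.0273). Its lowest cKO-labelled library, cKO 1, was only slightly above its highest Ctrl-labelled one. Dusp3 (VHR), which dephosphorylates ERK and JNK, was at 119, 143 and 180.0 CPM against 204, 203 and 214 CPM (0.49, SE 0.15, adjusted p = 0.0486), and Dusp19, a JNK pathway scaffold phosphatase, at 4.93, 5.98 and 4.95 CPM against 7.06, 7.58 and 7.04 CPM (0.45, SE 0.12, adjusted p = 0.0376). The Ctrl-labelled libraries carried most of the spread in Dusp3. The 7 type IIb fast-fiber markers were also all higher in cKO-labelled libraries (log2 fold change 0.60 to 2.02, 7 of 7 with an adjusted p under 0.05), and their part in these 5 results was not tested. With total counts all 5 genes stayed above 0 (0.20 to 0.68), and Dusp26, Dusp3 and Dusp19 no longer passed. Dusp3 shares 604 of its 4682 exon bases with Gm20659 on the opposite strand, so reads of the 2 genes may not be separable, since the strand setting of the counting is not given in the sources used here.

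Dusp15, an atypical enzyme named because other processing called it, was at 2.66, 2.32 and 4.32 CPM in Ctrl-labelled libraries and 2.06, 1.40 and 1.16 CPM in cKO-labelled libraries. Its log2 fold change of -1.01 (SE 0.32) missed the threshold (adjusted p = 0.0558) and passed it in DESeq2 (0.0185) and with total counts (0.0202).

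**Figure D4:**
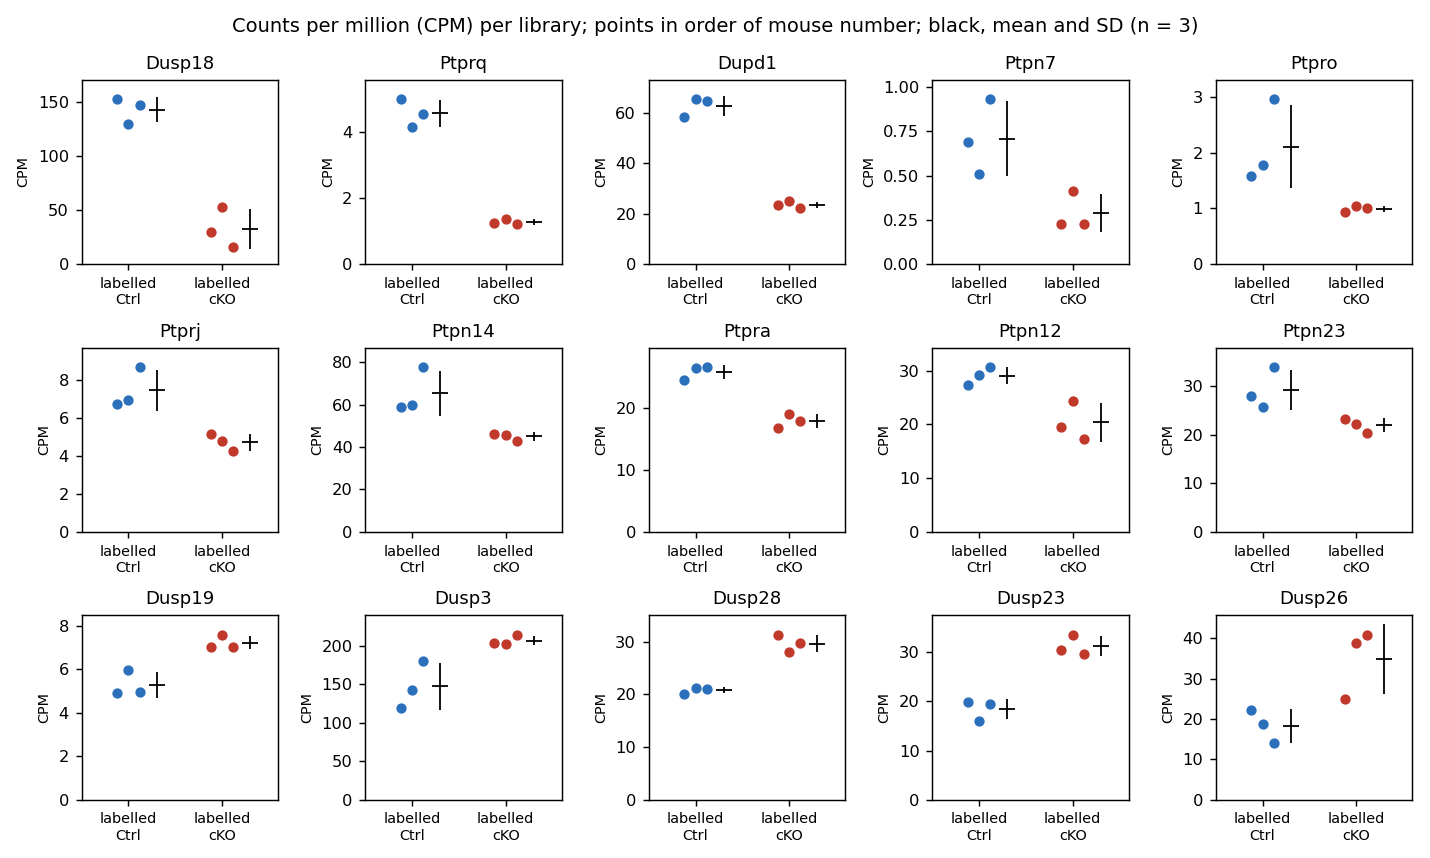
CPM on linear axes from 0 of the 15 genes with an adjusted p under 0.05, 1 point per library in order of mouse number, with the mean and SD (n = 3) in black. The groups do not overlap for any of the 15, and Dupd1 and Ptprq have the widest gaps relative to the range within each group.

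The non-receptor tyrosine phosphatases had 4 of 15 tested genes with an adjusted p under 0.05, all higher in Ctrl-labelled libraries (26.7%, beside 11.8% of all genes), and 0% were higher in cKO-labelled libraries, beside 12.6%. Their median log2 fold change was -0.36. Log2 fold changes were below 0 for 10 of 15, and for 15 of 15 with total counts, which lower all genes alike. With either scaling 10 of 15 were below the all-gene median. The 11 that did not pass ran from -0.88 to 0.19. Ptpn14 (Pez), a regulator of YAP, was at 58.7, 59.6 and 77.5 CPM against 46.3, 45.7 and 42.8 CPM, a log2 fold change of -0.54 (SE 0.12, adjusted p = 0.0190). Ptpn12 (PTP-PEST), which acts on focal adhesion proteins, was at 27.4, 29.2 and 30.6 CPM against 19.5, 24.3 and 17.3 CPM (-0.51, SE 0.13, adjusted p = 0.0300). Ptpn23 (HD-PTP), a protein of endosomal sorting, was at 28.0, 25.8 and 33.9 CPM against 23.3, 22.3 and 20.4 CPM (-0.41, SE 0.12, adjusted p = 0.0426). These 3 widely expressed genes differed by 1.33- to 1.45-fold. The most abundant gene of the class, Ptpn11 (SHP2), which carries growth factor signals to Ras, was at 203, 221 and 167 CPM against 215, 203 and 203 CPM. Its groups overlapped, with a log2 fold change of 0.07 (SE 0.11, adjusted p = 0.684).

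Ptpn7, Ptpn6 and Ptpn22 are known from blood cells, and all 3 were low. Ptpn7 (HePTP), which inactivates ERK in lymphoid cells, was at 0.690, 0.507 and 0.930 CPM in Ctrl-labelled libraries and 0.226, 0.415 and 0.227 CPM in cKO-labelled libraries, a log2 fold change of -1.28 (SE 0.38, adjusted p = 0.0464). Ptpn6 (SHP1), an inhibitor of immune receptor signals, was at 2.15, 2.099 and 2.52 CPM against 0.818, 1.84 and 1.000 CPM (-0.88, SE 0.31, adjusted p = 0.0797, or 0.0481 in DESeq2). With total counts Ptpn6 passed both thresholds (-1.11, adjusted p = 0.0446). So it did in 1 of the 6 fits that left out a library (adjusted p = 0.0119). Ptpn22 (PEP), a lymphoid enzyme named after its values were seen, was at 0.970, 1.11 and 0.875 CPM against 1.27, 0.961 and 1.07 CPM, with overlapping groups (0.15, SE 0.22, adjusted p = 0.645). Library cKO 2 was the highest of its group for Ptpn7 and Ptpn6 and for the immune markers. Of the 12 immune markers 10 were tested, 10 had a log2 fold change below 0 (median -0.87) and 7 passed, and 0 of the 12 were absent from all libraries. Their part in the Ptpn7 and Ptpn6 values was not tested. Ptpn7 did not pass in DESeq2 (adjusted p = 0.0548) or without the filter on low counts (0.0591).

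The receptor-type genes were, where they passed, lower in cKO-labelled libraries. Of 17 tested, 4 had an adjusted p under 0.05 and all 4 were higher in Ctrl-labelled libraries (23.5%, beside 11.8% of all genes; 0% in the other direction, beside 12.6%). The count was 8 with total counts, beside 28.7% of all genes, and 5 in DESeq2, beside 11.6%, all in the same direction. In 15 of 17 the log2 fold change was below 0 (16 with total counts), with a median of -0.51 against -0.02 for all genes. Both with TMM and with total counts, 15 of 17 were below the all-gene median. At an unadjusted p under 0.05 there were 7, of which 1 was higher in cKO-labelled libraries, beside 38.8% of all genes in either direction and 19.2% in that one. The R3 subfamily, receptors with repeated fibronectin domains outside the cell, held 3 of the 4. The 13 receptor genes that did not pass ran from -0.82 to 0.87. Of the 8 fibro-adipogenic progenitor markers 5 had a log2 fold change below 0 (median -0.25) and 3 passed, with sums of 1245 to 1459 CPM against 882 to 1439 CPM. All 7 Schwann cell markers were below 0 (median -0.66) and 1 passed. The part of these cells in the receptor results was not tested.

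Ptprq, an R3 receptor known from inner-ear hair bundles that also acts on phosphoinositides, was at 4.98, 4.15 and 4.54 CPM in Ctrl-labelled libraries and 1.24, 1.38 and 1.20 CPM in cKO-labelled libraries. The groups were narrow and well apart, with a log2 fold change of -1.84 (SE 0.16, adjusted p = 0.00131). The gene lies on chromosome 10, 107517049 to 107720051, minus strand, and shares no exon base with another gene. Ptpro (GLEPP1), an R3 receptor of kidney podocytes and of some leukocytes, was at 1.58, 1.79 and 2.95 CPM against 0.931, 1.04 and 1.000 CPM (-1.08, SE 0.28, adjusted p = 0.0306). Library Ctrl 3 stood above the rest of its group, and without it the log2 fold change was -0.76. Immune markers, given beside Ptpn7 above, were lower in the same libraries, and their part in the Ptpro value was not tested. Ptprj (DEP-1), an R3 receptor that restrains growth factor receptors, was at 6.77, 6.95 and 8.70 CPM against 5.16, 4.78 and 4.25 CPM (-0.66, SE 0.15, adjusted p = 0.0193). The most abundant R3 gene, the endothelial Ptprb (VE-PTP), was at 131, 117 and 115 CPM against 122, 99.8 and 122 CPM (-0.08, SE 0.11, adjusted p = 0.627). Endothelial markers summed to 549 to 602 CPM and 528 to 530.0 CPM, and 0 of 9 passed.

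Ptpra, an R4 receptor that activates Src-family kinases, was the receptor gene outside R3 that passed. It was at 24.6, 26.5 and 26.6 CPM in Ctrl-labelled libraries and 16.7, 19.1 and 18.0 CPM in cKO-labelled libraries, a log2 fold change of -0.53 (SE 0.08, adjusted p = 0.00695). The groups did not overlap. In the other subfamilies the gene with the highest length-scaled level did not pass: Ptprs of the LAR group had a log2 fold change of 0.02 (SE 0.09), Ptprm of the MAM-domain group -0.30 (SE 0.19), Ptprg of R5 -0.07 (SE 0.12), Ptprr of R7 -0.41 (SE 0.23) and Ptprn of the IA-2 group -0.64 (SE 0.41). For these 5 the adjusted p ran from 0.226 to 0.904. Ptprm passed with total counts (adjusted p = 0.0439), as did Ptprb (0.0303). Ptprz1, a glial receptor named after its values were seen, was the receptor gene with the highest log2 fold change, 0.87 (SE 0.32, adjusted p = 0.0853). It passed both thresholds in 1 of the 6 fits that left out a library, without Ctrl 3 (1.18, adjusted p = 0.0427). It was at 0.383, 0.314 and 0.602 CPM against 0.734, 0.935 and 0.704 CPM, while Schwann cell markers summed to 144 to 210 CPM and 82.6 to 133 CPM.

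Of the 15 genes with an adjusted p under 0.05, 6 passed in each of the 6 fits that left out 1 library: Dupd1, Ptprq, Dusp18, Ptpra, Dusp23 and Dusp28. Ptpn14 and Ptprj passed in 5 and missed without cKO 3 (adjusted p = 0.0621 and 0.0642). Dusp26 passed without Ctrl 1 (0.0436) or cKO 1 (0.0251), at a more than 2-fold difference in each, and missed in the other fits (0.0564 to 0.0990). Ptpro missed without Ctrl 2 (0.0586), cKO 1 (0.0902), cKO 2 (0.0514) or cKO 3 (0.0871). The other 5 passed in 1 fit each, which was without cKO 2 for Ptpn7 (0.0320) and Ptpn12 (0.00680), without Ctrl 2 for Ptpn23 (0.0470) and Dusp19 (0.0432), and without Ctrl 3 for Dusp3 (0.00990), and their adjusted p in the remaining fits was 0.0594 to 0.146.

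The kinases that the MAP kinase phosphatases act on, with their upstream kinases and the ERK feedback inhibitors, were given as 2 lists of 58 genes, of which 53 were tested. In the cascade list 12 of 40 were higher in cKO-labelled libraries and 1 (Map3k5) in Ctrl-labelled libraries at an adjusted p under 0.05, with a median log2 fold change of 0.12. In the feedback list 2 of 13 were higher in cKO-labelled libraries and 1 (Erf) in Ctrl-labelled libraries. The split of 14 to 2 over both lists was 6 to 13 with total counts, which lower all genes alike (4.75% and 28.7% of all genes passed there). The 14 were 7 without Ctrl 1, Ctrl 2, cKO 1 or cKO 3, where 5.33% to 6.2% of all genes were higher in cKO-labelled libraries. Relative to the all-gene median, 29 of the 53 were above it with TMM and 28 with total counts. Over both lists 26.4% were higher in cKO-labelled libraries, beside 12.6% of all genes, and 3.77% in Ctrl-labelled libraries, beside 11.8%. The type IIb fast-fiber and muscle fiber markers given above had higher sums in cKO-labelled libraries, though 2 of the 7 muscle fiber markers were below 0. The part of these markers in the counts was not tested.

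Only Spred3, a membrane-bound inhibitor of Ras to ERK signalling, passed both thresholds in these lists. It was at 1.74, 2.08 and 1.86 CPM in Ctrl-labelled libraries and 3.81, 3.999 and 4.34 CPM in cKO-labelled libraries, a log2 fold change of 1.10 (SE 0.15, adjusted p = 0.00477). The 4 kinases with the smallest p are named after the values were seen, 1 of them higher in Ctrl-labelled libraries. Map3k5 (ASK1), which activates JNK and p38, was at 18.6 ± 1.51 and 11.7 ± 1.36 CPM (log2 fold change -0.67, SE 0.11, adjusted p = 0.00839). Mapk9 (JNK2) was at 50.4 ± 3.25 and 87.2 ± 4.14 CPM, its activator Map2k4 at 78.3 ± 4.51 and 121 ± 7.39 CPM, and Mapk14 (p38 alpha) at 154 ± 8.78 and 227 ± 21.3 CPM (SD, n = 3 each, labelled Ctrl first). The log2 fold changes of Mapk9, Map2k4 and Mapk14 were 0.79 (SE 0.08), 0.63 (SE 0.08) and 0.56 (SE 0.10), with adjusted p-values of 0.00203, 0.00397 and 0.00874.

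**Figure D5:**
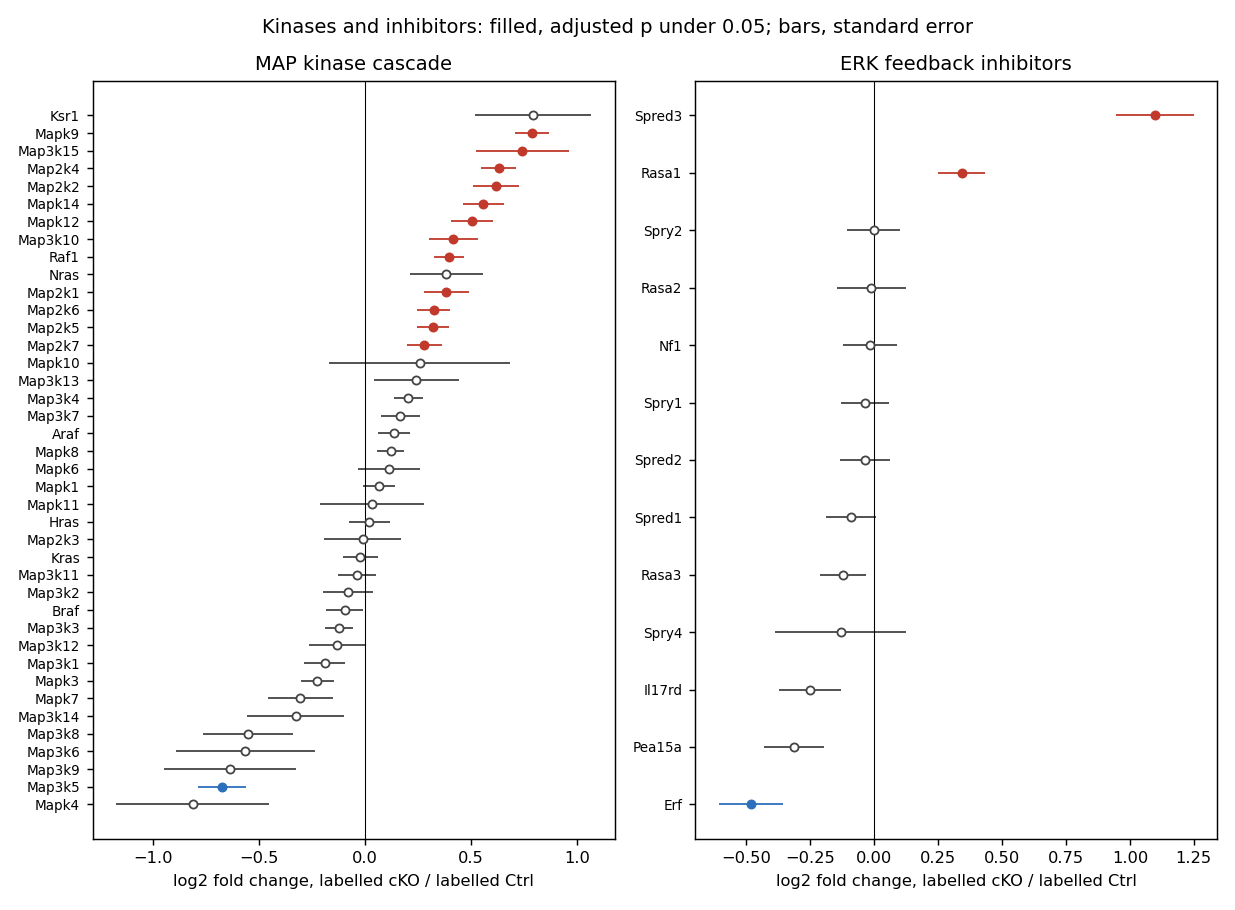
Log2 fold change (labelled cKO over labelled Ctrl, x axis) with standard errors of the 40 tested genes of the MAP kinase cascade and the 13 tested ERK feedback inhibitors; filled points have an adjusted p under 0.05. In the cascade 12 filled points lie to the right of 0 and 1 to the left, with libraries scaled by TMM.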

How the data were processed

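Sequencing reads of 6 GP muscle libraries were processed by the authors, whose submission notes name FastQC 0.11.8, Trimmomatic 0.39, HISAT2 2.1.0, featureCounts 1.6.2 and mm10; the annotation and strand setting are not given in the sources used here. The authors deposited whole-number counts per gene symbol, not normalized, 1 table per library. Each library is a separate mouse, grouped by its label.

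Differences were tested by edgeR 4.0.16 under R 4.3.3 (TMM, filterByExpr, glmQLFit, glmQLFTest), with Benjamini-Hochberg adjustment over 14180 genes and the study's thresholds of 0.05 and 2-fold. Standard errors were derived from the F statistic. CPM used TMM factors, and 1 count was worth 0.0227 to 0.0282 CPM. Length scaling, positions and shared exon bases came from GENCODE M21, promoters from RefSeq. The pipeline was tested on simulated counts. Alternatives were DESeq2 1.42.0, other scalings and filters, a replicate term and leaving out each library.

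The genes, classes and marker lists were chosen with earlier results of these data known. Genes named in full were those with an adjusted p under 0.05 (at most 30), the highest length-scaled level of each class, those gained under another scaling, Net39 and MAP kinase list genes past both thresholds; any other gene is said to be chosen afterwards, or is named for its promoter or level.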

Additional observations from a re-analysis of the deposited data

How the results depend on the processing

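With DESeq2 size factors in edgeR, each of the 29 named genes tested across settings kept its direction and its side of the threshold. With at least 10 counts in every library, 28 did; Ptpn7 was filtered out, and 4 phosphatase genes passed both thresholds. Total counts in place of TMM moved the phosphatase genes with an adjusted p under 0.05 to 19 higher in the libraries labelled Ctrl and 2 in those labelled cKO, the genes past both thresholds to 1023 and 157, and the MAP kinase list genes to 13 and 6; it turned Dusp8 (-0.24), Ptpn11 (-0.19) and Ptprs (-0.23), none past the threshold. That scaling lowers the log2 fold changes together by construction. DESeq2 gave 12 and 6 phosphatase genes (beside 11.6% and 13.2% of all genes).

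Same-numbered libraries did not deviate together (correlations 0.0835, -0.215 and -0.00201, and 1 of 3 libraries labelled Ctrl correlated best with its own number). With a replicate block, 3 phosphatase genes passed both thresholds, 4 and 2 had an adjusted p under 0.05 (beside 6.85% and 6.54% of all genes), and the MAP kinase lists gave 1 and 6; the cause was not tested.

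Leaving out 1 library gave 3 to 6 phosphatase genes past both thresholds higher in the libraries labelled Ctrl (3 without Ctrl 2, cKO 1 or cKO 3) and 0 to 1 in those labelled cKO (1 without Ctrl 1, Ctrl 3, cKO 1 or cKO 2). At an adjusted p under 0.05 it gave 4 to 11 (6 without cKO 1, 4 without cKO 3) and 2 to 4 (3 without Ctrl 1, Ctrl 2 or cKO 1, 2 without cKO 3). The shares of all genes fell in the same fits, to 6.18% and 6.2% without cKO 1 and 5.46% and 5.34% without cKO 3. Over the 6 fits these shares ran from 5.46% to 12.5% and from 5.33% to 12.3%. All genes past both thresholds numbered 398 to 685 and 172 to 387 (172 without Ctrl 1), and MAP kinase list genes 1 to 3 (1 without any library but cKO 2) and 7 to 13 (7 without Ctrl 1, Ctrl 2, cKO 1 or cKO 3). Net39 stayed at 4.10 to 4.31. Among the named genes, log2 fold changes that crossed 0 ran from -0.0433 to 0.0694 for Dusp8, -0.73 to 0.25 for Dusp1, -0.0350 to 0.16 for Ptpn11, -0.0585 to 0.0783 for Ptprs and -0.21 to 0.000922 for Ptprg, none past the threshold. The 8 untested genes had at most 12 counts in any library, where 3 counts correspond to 0.0682 to 0.0847 CPM.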
